A study of Homo sapiens with 6 samples.

Results

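The genes described here make up the protein-folding and export machinery of the endoplasmic reticulum (ER): chaperones, disulfide isomerases, factors of ER-associated degradation (ERAD), stress sensors, the translocon, the COPII coat and the receptors that retrieve ER proteins. They were chosen by name, 39 genes in all, of which 37 were among the 19777 genes that at least 1 probe set of the array names alone. The cells were Panc-1, a long-established human cell line grown from a pancreatic adenocarcinoma. Both groups of cultures were kept without serum for 24 h. One group then received 5 ng/mL porcine TGFβ1 for 48 h and the other, untreated, did not, and the labels record 3 repeats of the experiment. RNA of each group was hybridised to 3 Affymetrix Human Genome U133 Plus 2.0 arrays, on which a gene is read by 1 or more probe sets. The study took this treatment as a model of epithelial-mesenchymal transition and looked in it for altered genes of glycosylation.

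A secreted or membrane protein enters the ER through the Sec61 channel, is folded there by chaperones and oxidised by disulfide isomerases, and leaves in COPII vesicles. Chains that fail to fold are drawn back to the cytosol and degraded, which is ERAD. When unfolded chains accumulate, the sensors IRE1 (ERN1), PERK (EIF2AK3) and ATF6 start the unfolded protein response, in which the factors XBP1 and ATF6 switch on many of the chaperone and ERAD genes. Exocrine pancreas is known for its heavy secretory load, and cells in epithelial-mesenchymal transition secrete matrix proteins.

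The 37 genes were read by 97 such probe sets. The ubiquitin ligase gene SYVN1 had a single probe set, which it shares with a microRNA gene, and KDELR2 was not analysed here. A probe set was kept where its mean signal reached 100 (6.64 on the log2 scale) in either group, and 78 of the 97 were kept, covering 36 genes. The gene without a kept probe set was CREB3L1, which encodes a membrane-bound transcription factor and whose brighter probe set averaged 6.60 in untreated and 6.25 in TGFβ cells. All values below are log2 signals, a gene's value is the mean of its kept probe sets, and a log2 fold change is TGFβ minus untreated. A gene was called higher or lower where limma's Benjamini-Hochberg adjusted p, taken over all 10115 genes tested, was under 0.05.

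The arrays' median signals were 5.14 to 5.21, and with 3 arrays a group the array number sets the precision of what follows. TGFβ targets were higher, among them PMEPA1, an inhibitor of TGFβ signalling, with a log2 fold change of 2.60 and TGFBI, a matrix protein, with 1.34. The epithelial keratin genes KRT8 and KRT18 were at 11.45 and 13.03 in untreated cells and were lower with TGFβ, with log2 fold changes of -2.18 and -1.25, as were the adhesion genes CDH1 (-2.02) and EPCAM (-0.80). CDH1 rested on 1 kept probe set of 2, and over both its mean was 5.93 untreated and 4.74 with TGFβ. In all 5 of 6 epithelial genes passed the signal limit, all but KRT19. KRT7, with 1 kept probe set of 4, did not fall (log2 fold change 0.24) and was not called (adjusted p = 0.0569 by limma). None of 16 measured markers of acinar, endocrine, endothelial, blood and fibroblast cells passed the limit, with means of 3.43 to 5.72. The gap between the 3′ and the 5′ control probe sets of ACTB, a sign of RNA and labelling quality, was 0.52 to 0.57 on the untreated and 0.27 to 0.39 on the TGFβ arrays. The same gap for GAPDH was -0.019 to -9.1e-05 on the untreated and -0.043 to -0.0020 on the TGFβ arrays. The ACTB gap moved with the treatment, and its part in the results below was not tested.

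TGFβ cells had higher messages of most of the ER chaperone and translocon genes chosen here. Of the other translocon and signal recognition genes, given below, 5 of 20 rose. Of the 5 tested sensors and factors of the unfolded protein response none was called higher, against 27.7% of all genes. Of the 36 genes tested, 19 rose, 2 fell and 15 were not called, so 52.8% rose, against 27.7% of all genes tested, and 5.56% fell, against 31% of all genes. In either direction 58.7% of all genes were called. The median log2 fold change of the 36 genes was 0.20, with a range from -0.28 to 0.56, and that of all genes tested was -0.013. The changes were small: 0 of the 36 genes passed the test with a change of at least 1.5-fold, against 13.4% of all genes. On 23 of the 36 genes all TGFβ arrays lay above all untreated arrays, against 32.7% of all genes, and on 4 they lay below, against 35.5%. From bulk RNA a smaller share of cells that express a gene and less RNA per cell cannot be told apart. Without replicate 2 of both groups 14 of the genes rose, against 20.7% of all genes in the same fit, and without replicate 3, 16 rose, against 22.5%.

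**Figure D1:**
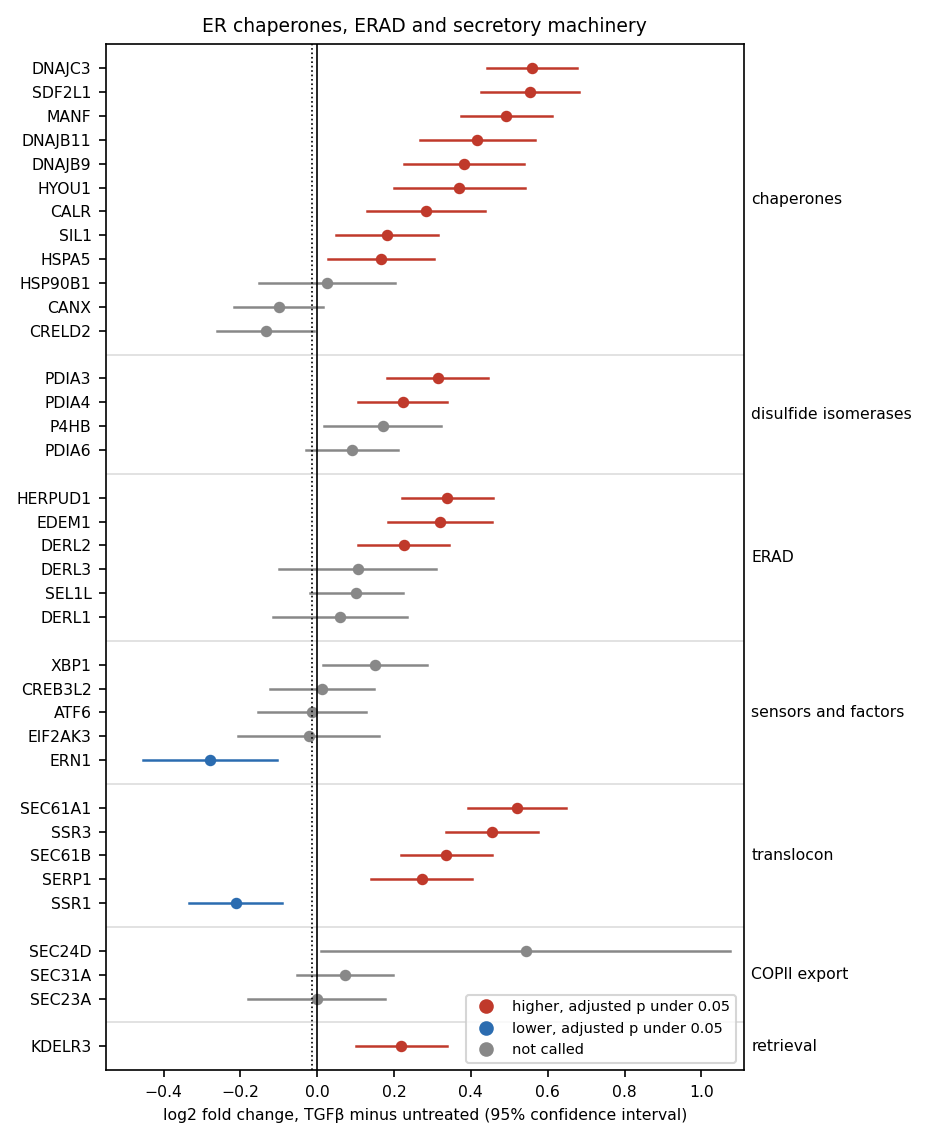
Log2 fold change (x axis, TGFβ minus untreated) of the 36 tested genes, grouped by role, with 95% confidence intervals from limma. Red marks genes called higher, blue genes called lower and grey genes not called, and the dotted line is the median of all genes, -0.013. Most chaperone and translocon genes lie right of 0, whereas ERN1 and SSR1 lie left of it.

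By role, the translocon and the chaperones had the highest medians, though for the translocon this order depended on the probe sets used. The translocon's median log2 fold change was 0.34, with 4 genes higher and 1 lower of 5, and that of the chaperones was 0.33, with 9 higher of 12. The translocon's median was 0.20 without the signal filter, and 0.20 without probe sets whose names end in _x_at or _s_at, then below COPII (0.25), ERAD (0.23) and the isomerases (0.22). The disulfide isomerases had a median of 0.20, with 2 higher of 4, and ERAD had 0.17, with 3 higher of 6. For the sensors and factors the median was -0.014, with 0 higher and 1 lower of 5. The COPII genes had a median of 0.072 and 0 of 3 were called, whereas the retrieval receptor KDELR3 rose. These medians are descriptions, and no test between the roles was made.

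Many genes of the unfolded protein response carry known motifs in their promoters, and these sequences are shown so that the genes holding them can be set beside their levels. ERSE, the ER stress response element, reads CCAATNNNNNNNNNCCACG and is bound by NF-Y and ATF6. ERSE-II reads ATTGGNCCACG, and UPRE, the site named for the unfolded protein response, was searched as TGACGTGG. The motifs, chosen with results of these data known, were searched on both strands in windows from 250 bases before to 50 bases after each RefSeq start (GRCh38.p14), 35116 windows of 27305 genes. Of the 39 genes 34 had a window, and KDELR2, DERL1, DERL3, SEC24D and PDIA3 had none. The 250 bases before the start of HSPA5, the gene of the chaperone BiP, held 1 exact ERSE match (capitals). Its first base lay 66 bases before the start. No mismatch was allowed in any motif, so near matches to ERSE stay in lower case.
HSPA5 (chr9:125241344-125241593, minus strand): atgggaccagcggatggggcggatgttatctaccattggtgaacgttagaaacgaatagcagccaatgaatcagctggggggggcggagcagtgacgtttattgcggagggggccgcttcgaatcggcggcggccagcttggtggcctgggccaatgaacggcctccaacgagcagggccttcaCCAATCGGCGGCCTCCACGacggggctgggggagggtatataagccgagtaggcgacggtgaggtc

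ERSE occurred in 8 of the 34 genes (23.5%) and in 0.0916% of all genes with a window. Besides HSPA5 and CANX, whose single match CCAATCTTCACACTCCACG falls into the windows of 3 starts, the matches were as follows, each with 25 flanking bases where the window allows and the match in capitals. Matches in CALR, CRELD2, SERP1 and the second one in HSP90B1 lie on the other strand and therefore read CGTGG first.
CALR (chr19:12938359-12938427, plus strand): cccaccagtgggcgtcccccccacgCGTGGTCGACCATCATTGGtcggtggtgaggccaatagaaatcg
HSP90B1 (chr12:103930191-103930259, plus strand): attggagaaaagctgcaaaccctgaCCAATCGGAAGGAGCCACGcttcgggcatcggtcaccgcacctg
HSP90B1 (chr12:103930296-103930364, plus strand): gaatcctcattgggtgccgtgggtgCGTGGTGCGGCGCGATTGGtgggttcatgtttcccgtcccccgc
CRELD2 (chr22:49918529-49918597, plus strand): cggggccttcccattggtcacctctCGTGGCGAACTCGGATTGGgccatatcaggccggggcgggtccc
PDIA6 (chr2:10812828-10812896, minus strand): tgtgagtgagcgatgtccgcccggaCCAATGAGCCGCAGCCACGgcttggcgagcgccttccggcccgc
XBP1 (chr22:28800578-28800646, minus strand): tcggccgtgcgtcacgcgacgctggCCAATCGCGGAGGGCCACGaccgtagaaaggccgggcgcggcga
SERP1 (chr3:150546685-150546746, minus strand): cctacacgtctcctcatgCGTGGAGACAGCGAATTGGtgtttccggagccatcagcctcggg

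ERSE-II occurred in 3 of the 34 genes (8.82%) and in 0.0696% of all genes with a window, with 2 matches in HYOU1. The match is again in capitals, and the matches in SDF2L1 and HYOU1 lie on the other strand.
SDF2L1 (chr22:21642089-21642149, plus strand): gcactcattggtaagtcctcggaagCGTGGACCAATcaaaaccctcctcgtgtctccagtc
HYOU1 (chr11:119057355-119057415, minus strand): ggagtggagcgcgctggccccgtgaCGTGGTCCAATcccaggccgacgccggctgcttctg
HYOU1 (chr11:119057249-119057309, minus strand): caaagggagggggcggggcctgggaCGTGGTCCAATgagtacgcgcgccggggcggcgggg
HERPUD1 (chr16:56932000-56932060, plus strand): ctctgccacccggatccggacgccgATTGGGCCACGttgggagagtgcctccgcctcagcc

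UPRE occurred in 4 of the 34 genes (11.8%), HYOU1, SSR3, SEC23A and KDELR3, and in 0.927% of all genes with a window. Of all windows 0.0769% held ERSE, 0.0541% ERSE-II and 0.729% UPRE. The match in HYOU1 overlaps its upstream ERSE-II match, with which it shares the letters CGTGG. The match in SEC23A, on the gene strand, ran from -4 to 3 relative to the start, and SEC23A was not called (log2 fold change -0.0019). Matches on the other strand were those of SSR3 and KDELR3, which both rose.
SSR3 (chr3:156554134-156554191, minus strand): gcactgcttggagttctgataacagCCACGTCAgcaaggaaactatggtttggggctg
KDELR3 (chr22:38468025-38468082, plus strand): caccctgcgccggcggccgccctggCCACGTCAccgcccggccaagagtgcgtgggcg

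The genes with these letters did not move as 1 group. Of the 8 genes with ERSE, HSPA5, CALR and SERP1 rose and HSP90B1, CANX, CRELD2, PDIA6 and XBP1 were not called, and their median log2 fold change was 0.12. The 24 other tested genes with a window had a median of 0.22, and 15 of them rose. All 3 genes with ERSE-II rose, with a median of 0.37, and so did 3 of the 4 genes with UPRE, with a median of 0.29, and HYOU1 is counted in both. Of the tested genes with a window but without ERSE-II 15 of 29 rose, and of those without UPRE 15 of 28. Outside the 39 genes 7 genes with ERSE were tested, of which 2 rose and 1 fell, with a median of -0.080. Likewise 2 of 10 tested genes with ERSE-II rose and 0 fell (median 0.069), and of 95 with UPRE 20 rose and 34 fell (median -0.075). A match is a description of letters in a window, not a bound site. Genes counted without a motif lacked only its exact letters in these windows. Near matches and sites further away were not searched, so these medians cannot compare genes with and without such sites.

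**Figure D2:**
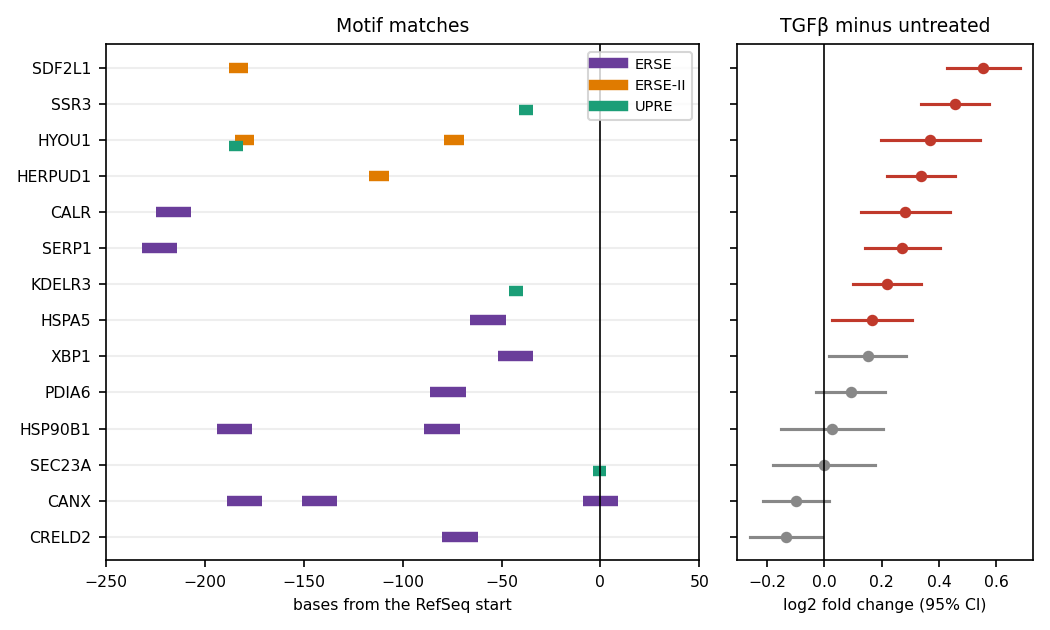
Left, matches of ERSE (purple), ERSE-II (orange) and UPRE (green) along the x axis in bases from the RefSeq start at 0, with genes ordered by fold change. The 3 marks of CANX are 1 match placed from 3 starts. Right, log2 fold change with its 95% confidence interval, red where called higher and grey where not called. All 3 genes with ERSE-II lie right of 0, while the genes with ERSE spread from CALR to CRELD2.

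Among the chaperones, the 3 largest rises were in partners of the chaperone BiP. DNAJC3, a J-domain co-chaperone of BiP also known as an inhibitor of PERK, read 8.35, 8.26 and 8.01 on the untreated arrays and 8.88, 8.81 and 8.60 on the TGFβ arrays. Each of its TGFβ arrays lay above each untreated array, and the level was 47.3% higher (log2 fold change 0.56, SE 0.048, adjusted p = 0.000238 by limma). All 4 of its probe sets rose, by 0.30 to 0.71, the brightest by 0.30. SDF2L1, a component of the BiP and ERdj3 chaperone complex, read 9.11, 9.24 and 9.32 untreated and 9.72, 9.82 and 9.80 with TGFβ. The groups did not overlap, and the level was 46.8% higher (0.55, SE 0.052, adjusted p = 0.000339). MANF, a small ER protein that binds BiP and can be secreted, read 10.19, 10.22 and 10.19 untreated and 10.66, 10.69 and 10.72 with TGFβ. Its arrays were close together within each group and 40.6% apart between them (0.49, SE 0.049, adjusted p = 0.000406).

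HSPA5, which encodes BiP, the central Hsp70 chaperone of the ER that also holds the sensors inactive, changed less. It read 10.95, 11.07 and 11.08 untreated and 11.22, 11.19 and 11.18 with TGFβ. All TGFβ arrays lay above the untreated ones, but the difference was 12.2% (log2 fold change 0.17, SE 0.057, adjusted p = 0.0450), just past the threshold. Taken singly, its 2 probe sets were not called (0.21, adjusted p = 0.0502, and 0.13, adjusted p = 0.111). The call was lost without replicate 1 (0.11, adjusted p = 0.0939), without replicate 2 (0.19, adjusted p = 0.120) and without replicate 3 (0.20, adjusted p = 0.0863).

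The other chaperone genes that rose were the J-domain co-chaperones DNAJB11 (0.42, SE 0.061, adjusted p = 0.00188) and DNAJB9 (0.38, SE 0.064, adjusted p = 0.00312), the nucleotide exchange factors of BiP HYOU1 (0.37, SE 0.070, adjusted p = 0.00520) and SIL1 (0.18, SE 0.054, adjusted p = 0.0293), and the lectin chaperone CALR, calreticulin (0.28, SE 0.063, adjusted p = 0.00987). SIL1 was not called without replicate 2 (0.23, adjusted p = 0.0546) or replicate 3 (0.16, adjusted p = 0.152), nor CALR without replicate 2 (0.21, adjusted p = 0.0713) or with its brightest probe set in place of the mean (0.12, adjusted p = 0.103). The membrane-bound counterpart of calreticulin, CANX or calnexin, averaged 11.42 ± 0.03 untreated and 11.32 ± 0.02 with TGFβ (SD, n = 3 arrays per group) and was not called (-0.10, adjusted p = 0.117). CRELD2, an ER protein whose gene is known to respond to ER stress, averaged 11.42 ± 0.03 and 11.29 ± 0.04 and was not called either (-0.13, adjusted p = 0.0646), although all of its TGFβ arrays lay below the untreated ones. It passed the test without replicate 1 (-0.16, adjusted p = 0.0294) and in a fit without the replicate block (adjusted p = 0.0277). HSP90B1, the ER member of the Hsp90 family, read 9.18, 9.34 and 9.15 untreated and 9.36, 9.19 and 9.19 with TGFβ. Its groups overlapped (0.026, 95% confidence interval -0.15 to 0.20), and its 2 probe sets differed in sign, 0.11 and -0.053. A further 2 probe sets of HSP90B1 also name a microRNA gene and were not used. Both probe sets that were used have names ending in _x_at, and without such probe sets HSP90B1 could not be tested.

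All 4 disulfide isomerases chosen here, which form and rearrange disulfide bonds, had every TGFβ array above every untreated one, as had 32.7% of all genes. Of 12 other oxidative folding genes, 6 had all TGFβ arrays above and 3 had all below. PDIA3, which acts on glycoproteins together with calnexin and calreticulin, read 8.997, 8.87 and 8.98 untreated and 9.31, 9.27 and 9.21 with TGFβ, 24.3% higher (0.31, SE 0.054, adjusted p = 0.00352). PDIA4 read 10.23, 10.28 and 10.37 untreated and 10.47, 10.51 and 10.57 with TGFβ. It rose by 16.7% (0.22, SE 0.048, adjusted p = 0.00834), although not without replicate 2 (0.22, adjusted p = 0.0611) or with its brightest probe set (0.14, adjusted p = 0.0689). P4HB, protein disulfide isomerase itself and also a subunit of the collagen prolyl hydroxylase, differed by 0.17 (adjusted p = 0.0571) and PDIA6 by 0.091 (adjusted p = 0.156), and neither was called. In a fit without the replicate block P4HB was called higher (adjusted p = 0.0372).

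In ERAD, 3 genes rose and none of the 6 tested fell. HERPUD1, a membrane protein of the degradation complex, read 11.55, 11.60 and 11.60 untreated and 11.89, 11.97 and 11.90 with TGFβ. Its TGFβ arrays all lay above the untreated ones, 26.4% higher on average (0.34, SE 0.049, adjusted p = 0.00173). HERPUD1 rests on 1 kept probe set of 2; the other, under the signal limit, differed by 0.0076, and with both averaged the gene was not called (0.17, adjusted p = 0.0931). EDEM1, a mannosidase-like protein that directs misfolded glycoproteins to degradation, read 8.53, 8.56 and 8.61 untreated and 8.95, 8.82 and 8.89 with TGFβ, 24.9% higher (0.32, SE 0.056, adjusted p = 0.00362). DERL2, a derlin of the retrotranslocation complex, read 10.06, 10.09 and 10.02 untreated and 10.25, 10.32 and 10.28 with TGFβ. It was 16.9% higher (0.23, SE 0.049, adjusted p = 0.00846), and the call was lost without replicate 2 (0.23, adjusted p = 0.0594) and without replicate 3 (0.21, adjusted p = 0.0646).

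The other ERAD genes were not called. SEL1L, the adaptor of the SYVN1 ligase, read 9.01, 9.02 and 8.90 untreated and 9.12, 9.07 and 9.04 with TGFβ (0.10, adjusted p = 0.125), and DERL1 read 10.60, 10.67 and 10.73 untreated and 10.84, 10.67 and 10.66 with TGFβ (0.059, adjusted p = 0.508). The groups of SEL1L did not overlap, whereas those of DERL1 did. DERL3 was dim, at 6.93 ± 0.17 untreated and 7.03 ± 0.06 with TGFβ (SD, n = 3 arrays per group), and rested on 1 kept probe set of 3 (0.10, adjusted p = 0.322). Without replicate 1 it passed the test (0.22, adjusted p = 0.0129).

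None of the 5 tested sensors and factors was called higher, although XBP1 lay close to the threshold. ERN1, which encodes the kinase and endonuclease IRE1, read 8.37, 8.44 and 8.51 untreated and 8.28, 8.03 and 8.18 with TGFβ. All TGFβ arrays lay below the untreated ones, and the level was lower by 0.28 on the log2 scale, fold 0.823 (SE 0.072, adjusted p = 0.0163). This fall rests on 1 kept probe set. The other 2 probe sets of ERN1 lay under the signal limit and differed by 0.092 and 0.097, and with all 3 averaged the log2 fold change was -0.030 (adjusted p = 0.760). The call was also lost without replicate 2 (-0.22, adjusted p = 0.101) and without replicate 3 (-0.25, adjusted p = 0.0587).

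ATF6, the sensor that is cleaved into a transcription factor, read 8.65, 8.54 and 8.69 untreated and 8.71, 8.56 and 8.56 with TGFβ. Its groups overlapped (-0.014, 95% confidence interval -0.16 to 0.13, adjusted p = 0.852). EIF2AK3, the sensor kinase PERK, read 9.40, 9.45 and 9.56 untreated and 9.58, 9.30 and 9.46 with TGFβ, again overlapping (-0.023, 95% confidence interval -0.21 to 0.16, adjusted p = 0.814). XBP1, the transcription factor whose message IRE1 splices, read 9.74, 9.72 and 9.76 untreated and 9.98, 9.88 and 9.81 with TGFβ. All 3 TGFβ arrays were above the untreated ones, but the difference was not called (0.15, SE 0.056, adjusted p = 0.0576). XBP1 was called higher in a fit without the replicate block (adjusted p = 0.0343), and in 4 of 13 alternatives in all. These probe sets give the level of the message and not its splicing. CREB3L2, a membrane-bound factor related to ATF6, averaged 9.23 ± 0.11 and 9.24 ± 0.02 (SD, n = 3 arrays per group; adjusted p = 0.858).

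In the translocon, both measured subunits of the Sec61 channel rose. SEC61A1, the pore-forming subunit, read 10.20, 10.25 and 10.24 untreated and 10.78, 10.78 and 10.69 with TGFβ, 43.5% higher (0.52, SE 0.052, adjusted p = 0.000427). SEC61B, its small subunit, read 11.72 on each untreated array and 12.08, 12.07 and 12.01 with TGFβ, 26.2% higher (0.34, SE 0.049, adjusted p = 0.00178), or 0.20 when averaged with a probe set under the signal limit (adjusted p = 0.0400). For both genes the gap between groups was several times the spread within them. SSR3, the gamma subunit of the translocon-associated protein complex (TRAP), read 9.57, 9.63 and 9.55 untreated and 10.00, 10.07 and 10.06 with TGFβ, 37.2% higher (0.46, SE 0.049, adjusted p = 0.000559). SERP1, a small protein bound to the translocon, averaged 10.81 ± 0.04 untreated and 11.08 ± 0.04 with TGFβ (SD, n = 3 arrays per group) and rose by 20.7% (0.27, SE 0.054, adjusted p = 0.00615). Averaged with a dimmer probe set that lay under the limit and went from 6.24 to 5.64, SERP1 was no longer called (0.053, adjusted p = 0.569).

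SSR1, the alpha subunit of the same TRAP complex, went the other way from SSR3. The further TRAP subunits SSR2 (-0.17, adjusted p = 0.0366) and SSR4 (-0.15, adjusted p = 0.04997), of the other ER genes below, were also called lower. SSR1 read 10.16, 10.18 and 10.19 untreated and 10.00, 9.95 and 9.95 with TGFβ, lower by 0.21 on the log2 scale, fold 0.863 (SE 0.050, adjusted p = 0.0114). Its TGFβ arrays all lay below the untreated ones, yet its 6 probe sets disagreed. A pair fell, 1 from 9.01 to 8.12 (log2 fold change -0.89, adjusted p = 0.000181) and 1 from 7.68 to 7.12 (-0.56, adjusted p = 0.00188). A brighter one rose from 10.75 to 10.98 (0.23, adjusted p = 0.0138), and the other 3 differed by -0.078 to 0.048 and were not called. With the brightest probe set in place of the mean, SSR1 was not called (-0.078, adjusted p = 0.359), nor was it without replicate 2 (-0.20, adjusted p = 0.0826) or without replicate 3 (-0.20, adjusted p = 0.0796).

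The 3 COPII coat genes chosen here were not called. Of the coat subunits among the other ER genes, SEC13 was called higher (0.23, adjusted p = 0.0148) and SEC24B lower (-0.33, adjusted p = 0.00199). SEC23B, SEC24A and SEC24C were not called. SEC23A, a subunit of the inner coat, read 9.66, 9.76 and 9.88 untreated and 9.82, 9.76 and 9.71 with TGFβ, with overlapping groups (-0.0019, 95% confidence interval -0.18 to 0.18). SEC31A, of the outer coat, averaged 10.27 ± 0.06 untreated and 10.34 ± 0.03 with TGFβ (SD, n = 3 arrays per group; 0.072, adjusted p = 0.270). SEC24D, a cargo-binding subunit of the inner coat, had a log2 fold change of 0.54, among the largest of the 36 genes, but with the widest error (SE 0.22, adjusted p = 0.0746). It read 7.43, 7.58 and 7.89 untreated and 8.72, 7.81 and 8.003 with TGFβ, so 1 TGFβ array stood apart from the other arrays and the groups overlapped. Without replicate 1 its log2 fold change was 0.17 (adjusted p = 0.0307), and without replicate 3 it was 0.76 (adjusted p = 0.0118). Of the retrieval receptors, which return escaped ER proteins from the Golgi, KDELR3 read 9.16, 9.22 and 9.14 untreated and 9.40, 9.40 and 9.37 with TGFβ. Its TGFβ arrays all lay above the untreated ones, 16.4% higher (0.22, SE 0.049, adjusted p = 0.00939), a call that was lost without replicate 3 (0.21, adjusted p = 0.0631) and with its brightest probe set (0.11, adjusted p = 0.152).

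**Figure D3:**
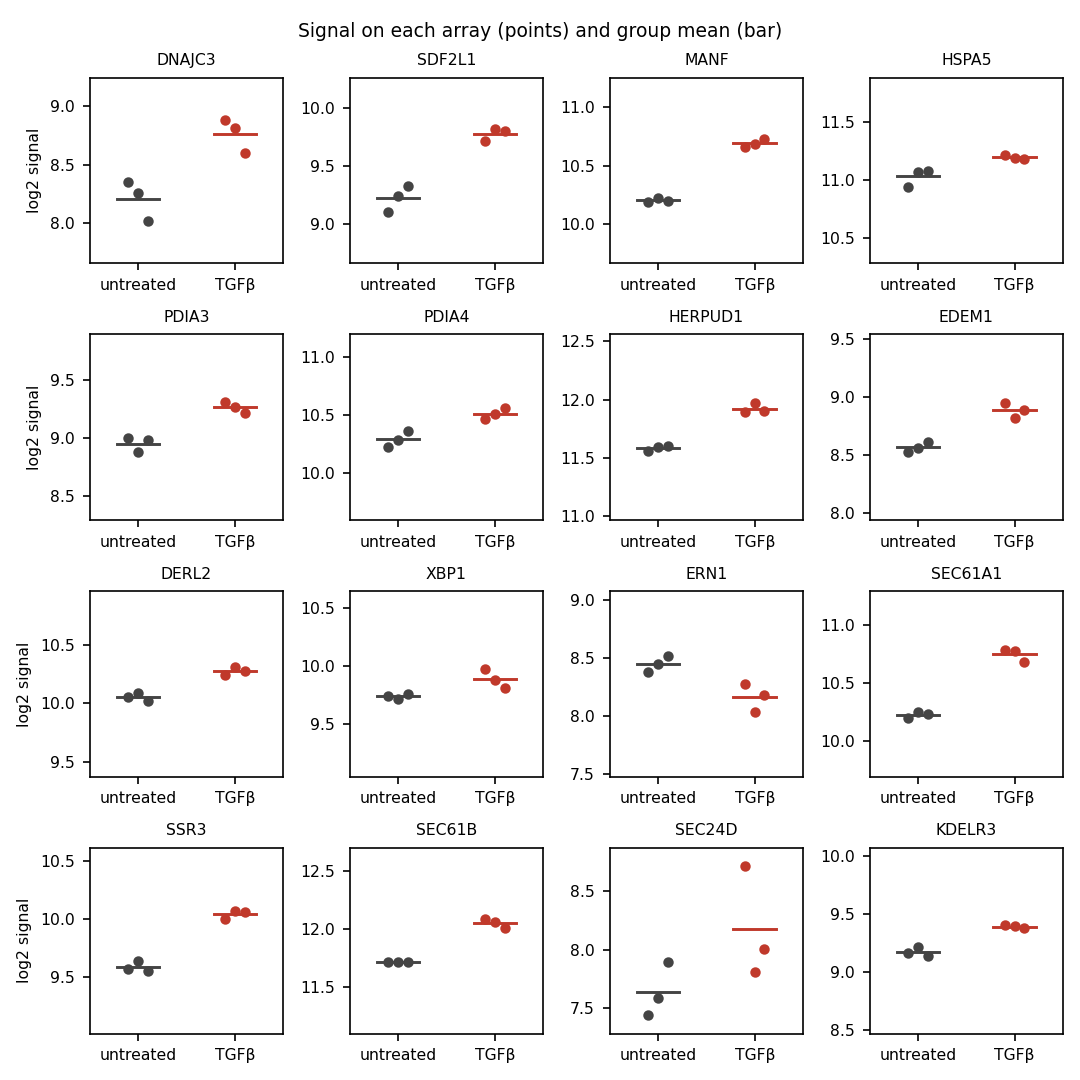
Log2 signal (y axis) of 16 genes on each of the 3 untreated (grey) and 3 TGFβ (red) arrays, with a bar at each group mean. All panels span the same range of log2 units. The groups are apart for DNAJC3, MANF and SEC61A1, ERN1 is lower with TGFβ, and SEC24D has 1 TGFβ array at 8.72 above the others.

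Probe sets of the same gene did not always move alike. Of the 78 kept probe sets 34 rose and 5 fell, against 26.6% and 28.5% of all probe sets tested. In 21 genes with at least 2 kept probe sets, 6 had probe sets of both signs: ATF6, DERL1, HSP90B1, SEC23A, SEL1L and SSR1. The 4 probe sets of ATF6 had log2 fold changes of 0.31 (adjusted p = 0.00971), 0.068, -0.24 (adjusted p = 0.0128) and -0.20, so that 1 rose, 1 fell and their mean was near 0. For SEL1L 1 of the 3 kept probe sets rose, by 0.26 (adjusted p = 0.0169), and for DERL1 also 1 of 3, by 0.17 (adjusted p = 0.0370). In HSP90B1 and SEC23A no probe set was called. Which transcripts or transcript ends each probe set reads was not analysed here.

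**Figure D4:**
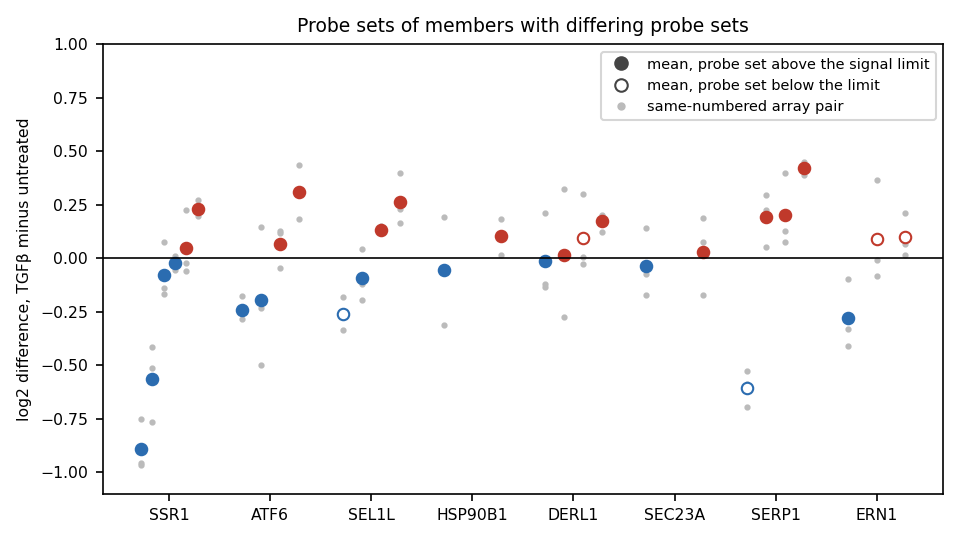
Log2 difference of each probe set (y axis, TGFβ minus untreated) for 8 genes, as the mean (large points, red above 0 and blue below) and in each same-numbered pair of arrays (small grey points). Filled points are probe sets above the signal limit and open points those below it. SSR1 and ATF6 hold probe sets well above and well below 0, and for ERN1 the filled point is negative while both open points are positive.

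The rest of the ER machinery was read from 134 further genes in 8 lists, of which 123 were tested. Of these 40 rose (32.5%, against 27.7% of all genes tested) and 17 fell (13.8%, against 31%), with a median log2 fold change of 0.061. The lists had the same order as the genes above only in part. Other chaperones and glycoprotein folding enzymes had a median of 0.17, with 10 higher and 1 lower of 20, and other ERAD genes 0.16, with 8 higher and 3 lower of 18. Other translocon and signal recognition genes had a median of -0.048, with 5 higher and 3 lower of 20, against 0.34 for the 5 translocon genes above.

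In the folding lists, MOGS, the glucosidase that trims the newly attached glycan first, rose by 0.57, FKBP11, a prolyl isomerase, by 0.56, and SERPINH1, the collagen chaperone HSP47, by 0.45. Oxidative folding had a median of 0.069, with 5 higher and 2 lower of 12, and its leading genes were opposed. ERO1A, the oxidase that recharges disulfide isomerases, went from 9.41 to 10.14 (0.73, SE 0.047), while its paralogue ERO1B went from 8.06 to 7.19 (-0.87, SE 0.079) and the thioredoxin-like TMX4 from 9.95 to 9.30 (-0.66, SE 0.050). ERAD was mixed as well, with FAM8A1, a component of the SYVN1 ligase complex, lower (-0.87, SE 0.049), AUP1 higher (0.58, SE 0.053) and the ligase gene MARCHF6 lower (-0.40, SE 0.050).

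Other sensors and factors had a median of -0.10, with 2 higher and 3 lower of 11. CREB3L4, a relative of CREB3L2, fell (-0.67, SE 0.047), as did NFYB, a subunit of the factor NF-Y (-0.47, SE 0.076), and PPP1R15A, the phosphatase subunit that reverses PERK's mark on eIF2α, rose (0.54, SE 0.054). The remaining called genes were CREB3, which rose (0.40, SE 0.050), and DDIT3, which fell (-0.32, SE 0.049). In the translocon list the signal peptidase subunit SPCS3 (0.46) and the receptor subunit SRPRB (0.33) rose and SEC62 fell (-0.36). The oligosaccharyltransferase, which attaches glycans to entering chains, had a median of 0.097, with 2 of 10 higher, STT3A (0.17) and OSTC (0.16). Other COPII genes and cargo receptors had a median of -0.034, with 4 higher and 2 lower of 17: SAR1A (0.34) and PREB (0.34), which start the coat, rose, and MIA3, which helps to export collagen, fell (-0.45). COPI and other retrieval genes had a median of 0.061, with 4 higher and 3 lower of 15, led by TMED9 (0.40), COPA (0.36) and TMED3 (0.30). The share called higher was 26.7% here, 23.5% for COPII, 20% for the oligosaccharyltransferase, 25% for the translocon list and 18.2% for sensors. These shares lie below the 27.7% of all genes. Those of other chaperones (50%), ERAD (44.4%) and oxidative folding (41.7%) lie above it. The share called lower was below the 31% of all genes in every list. It ran from 0% for the oligosaccharyltransferase to 27.3% for sensors. In the oligosaccharyltransferase 7 of 10 genes had all TGFβ arrays above all untreated arrays, against 32.7% of all genes.

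**Figure D5:**
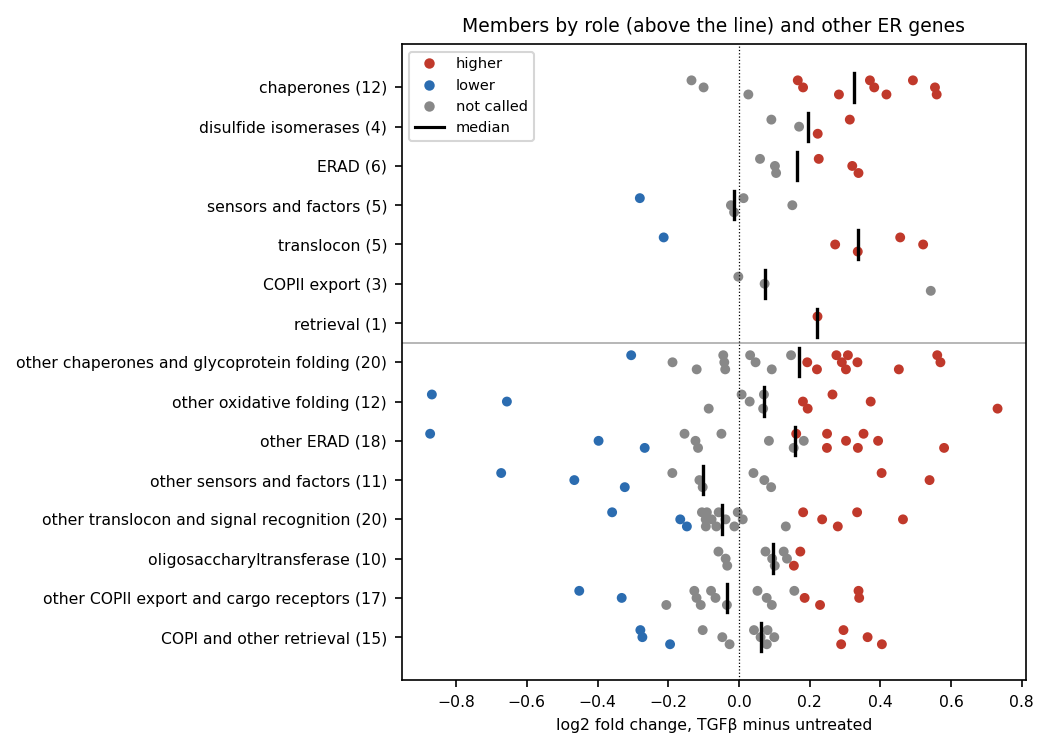
Log2 fold change (x axis, TGFβ minus untreated) of each tested gene, as points, in the 7 roles (above the grey line) and in the 8 lists of other ER genes, with the number of genes in brackets and a black bar at the median. Red points are called higher, blue lower and grey not called. The medians run from 0.34 for the translocon genes to -0.10 for other sensors and factors.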

How the data were processed

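RNA of 3 untreated and 3 TGFβ-treated Panc-1 cultures was hybridised, as biotinylated cRNA, to U133 Plus 2.0 arrays from Affymetrix. The deposited values, made by the authors, are log2 signals per probe set, with the software and the normalization between arrays not stated in the sources used here. For the dose the labels say 5 ng/mL but the study's methods 5 nM, and the former is printed.

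Control probe sets (62) were removed, and 41091 of the remaining 54613 probe sets named 1 gene in the platform's annotation. The signal filter took its limit of 100 from the methods and kept 19101 probe sets, which gave 10115 genes. Differences were tested in R 4.3.3 with limma 3.58.1, by lmFit and a two-sided eBayes test, in a model blocked on replicate number since the methods used pairs. Residual degrees of freedom were 2 and prior degrees of freedom 4.12. P-values were adjusted by Benjamini-Hochberg over all genes, with a threshold of 0.05.

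The members, the other ER lists and the motifs were chosen with earlier results of these data known, so no list was tested as a whole. All 6 array values are given for up to 3 called genes of each role with the largest change, for HSPA5, XBP1, ATF6, ERN1 and EIF2AK3, and for genes whose probe sets differ in sign. SEC24D was added after its values were seen. In each other list up to 3 called genes with the largest change are named. Further genes of these lists (SSR2, SSR4, SEC13, SEC24B, SEC23B, SEC24A, SEC24C, CREB3 and DDIT3) were named after their values were seen. Promoter sequences are RefSeq's. The workflow was also run on simulated data with independent noise and far fewer changed genes than were called here. That run does not show how often calls in data like these are right. Alternatives were a fit without the block, 3 other signal filters, 2 normalizations, log2 of the signal plus 16, another variance prior, other choices of probe set, stricter thresholds, the methods' t-test, and each replicate left out.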

Additional observations from a re-analysis of the deposited data

How the results depend on the processing

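Each called gene was fitted again in 12 or 13 other ways, apart from the stricter thresholds and the methods' t-test. Of the 21 called genes, 11 kept call and direction in all of these fits, 10 lost the call in at least 1, and 0 changed direction. Of the 15 genes not called, 9 passed the test in at least 1. Same-numbered arrays of the groups did not deviate together (r = -0.29, 0.24 and 0.060 across genes), and without the replicate block 21 genes rose and 3 fell, with XBP1, P4HB and CRELD2 added to the calls. The number called higher was 12 of 26 without probe sets whose names end in _x_at or _s_at, and 14 to 20 with each replicate left out. The number called lower was 1 without the signal filter, 4 with quantile normalization, 4 with a trended and robust prior, 4 with probe sets as the unit, and 0 to 3 with each replicate left out. At an adjusted p under 0.01, 17 rose and 0 fell, and at 1.5-fold 0 were called in all, 0 higher and 0 lower. The methods' t-test, counting a gene where any probe set passed, called 23 unadjusted, and 13 after Benjamini-Hochberg, 12 higher and 1 lower.

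For ERAD the median log2 fold change was 0.23 with a limit of 200, 0.23 without _x_at and _s_at probe sets, 0.25 with the brightest probe set of each gene, and 0.17 to 0.23 with each replicate left out. That of the translocon was 0.20 without the filter, 0.20 without _x_at and _s_at probe sets and 0.40 with the brightest probe set. COPII had 0.25 without _x_at and _s_at probe sets, and retrieval 0.17 with a limit of 200 and 0.11 with the brightest probe set. With each replicate left out the sensors' median ran from -0.055 to 0.043. Genes near 0 changed sign: SEL1L was -0.091 with the brightest probe set and DERL1 -0.014 without _x_at and _s_at probe sets. With each replicate left out, HSP90B1 ran from -0.054 to 0.11, DERL1 from -0.033 to 0.12, ATF6 from -0.055 to 0.043, EIF2AK3 from -0.13 to 0.041, CREB3L2 from -0.018 to 0.063 and SEC23A from -0.085 to 0.083. The cause was not tested for any of these.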
